A study of Mus musculus with 4 samples.

Results

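Hand1, Hand2, Mab21l1 and Mab21l2 were followed across the primordia of 4 gut-tube organs. They are 4 of 16995 genes with a symbol on the array, and 5 of 41105 probes carry an accession of one of them: 1 probe each for Hand1, Mab21l1 and Mab21l2, and 2 for Hand2. Hand1 and Mab21l2 were selected on their measured levels, as leaders of the genes higher in intestine than in the other organs, and Hand2 and Mab21l1 are their relatives. The intestine excess of Hand1 and Mab21l2 is therefore a description of how they were chosen. Total RNA came from the intestine, stomach, esophagus and lung primordia of ICR mice, an outbred laboratory stock, dissected at E11.5 (embryonic day) with no genetic change or treatment named in the labels. Each organ has 1 array, read in 1 colour, and all 4 arrays lie on 1 slide with 1 scan. The labels do not say how many embryos went into a sample. With 1 array per organ no difference was tested and no p-value exists.

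HAND1 and HAND2 are basic helix-loop-helix transcription factors of the Twist family. They bind DNA as dimers, most often with the widely expressed E proteins, and Id proteins compete for those partners. In the mouse embryo both are used in the heart and in lateral and extra-embryonic mesoderm, and Hand2 is also needed in limb buds, in sympathetic neurons and in the neurons of the gut wall. Mab21l1 and Mab21l2 are vertebrate relatives of the nematode gene mab-21. They encode proteins of the nucleotidyltransferase fold, are best known from the eye, and Mab21l2 is also needed for the ventral body wall.

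Levels are given as log2 of the background-subtracted spot signal minus the 75th percentile of its own array, so a level of 0 is a spot as bright as that percentile. They compare 1 probe across organs. They do not compare genes, since probes differ in brightness. The lowest level at which a probe was well above background, the scanner's own detection call, was -6.92 in intestine, -5.78 in stomach, -5.75 in esophagus and -2.39 in lung. The lung array was dim: 39.0% of its spots were well above background, against 67.9% to 74.0% on the others. Where a probe was not well above background, a value under that lowest level was raised to it, and the fold is then a lower bound, written "at least". The median SD over copies of 1 probe on an array was 0.08 to 0.10 (log2) in intestine, stomach and esophagus and 0.20 in lung, and covers spots only. The extraction protocol speaks of stomach for all 4 samples; Cdx2, a regulator of intestinal epithelium, and Barx1, of stomach mesenchyme, were highest on the arrays labelled intestine and stomach.

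Hand1 was bright in intestine, dim but well above background in stomach, and not called well above background in esophagus or lung. Its spot signal was 6878 in intestine, 39.7 in stomach, 9.41 in esophagus and 1.73 in lung. The scanner's error estimate for these spots was 688, 4.26, 2.14 and 1.73 in the same order. On the log2 scale Hand1 stood at 2.79 in intestine and -3.01 in stomach, and it was not well above background in esophagus or lung. The intestine level was 56.0-fold the stomach level. It was 280-fold the esophagus level as measured and at least 36.4-fold the lung level. The esophagus value lay above the lowest level of its array and was not raised, so 280-fold is no lower bound. Under normexp, a background correction that adds an offset and so compresses differences between dim spots, these folds were 24.2, 39.4 and 9.11. The bound against lung is set by the lowest level that array resolves, which lies above the Hand1 level measured in stomach. Of the other genes compared between intestine and stomach, 13807 in all, 7 had a larger difference than Hand1. Hand1 was chosen for its intestine excess, so nothing is read from this rank. In bulk tissue, more cells that express a gene and more RNA per cell cannot be told apart.

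Mab21l2 followed nearly the same course. Its signal was 6392 in intestine, 33.6 in stomach, 15.3 in esophagus and 1.43 in lung, with levels of 2.69 in intestine, -3.25 in stomach and -4.63 in esophagus. It was well above background on those 3 arrays and not in lung. Intestine exceeded stomach 61.4-fold, esophagus 160-fold and lung at least 33.9-fold, or 27.9-fold, 41.3-fold and 10.9-fold under normexp. Unlike Hand1, Mab21l2 was detected in esophagus, and stomach was 2.60-fold above it, or 1.48-fold under normexp.

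Hand2 had a different course: it was nearly level between intestine and stomach. The brighter of its probes gave signals of 3431 in intestine, 979 in stomach, 330 in esophagus and 1.57 in lung, and the other probe gave 1936, 634, 190 and 1.28. The intestine signals are several times those of stomach, but so is the brightness of the whole array, whose 75th percentile was 991 in intestine and 320 in stomach. After scaling, the brighter probe stood at 1.79 in intestine, 1.61 in stomach and -0.20 in esophagus, and the other at 0.97, 0.98 and -0.99. Intestine and stomach therefore differed 1.13-fold by the first probe and 1.01-fold, in the opposite direction, by the second. Across 4691 genes with a second probe detected in both organs, the difference between the 2 probes of a gene had an SD of 0.75 (log2), so neither value sets intestine apart from stomach. Both organs were above esophagus: intestine 3.98-fold and stomach 3.52-fold by the first probe, and 3.89-fold and 3.94-fold by the second. The 2 Hand2 probes differed by 0.03 on the log2 scale for intestine minus esophagus and by 0.16 for stomach minus esophagus, against SDs between probes of 1.04 over 4694 genes and 0.51 over 4615 genes.

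In lung neither Hand2 probe was well above background. The lung level lay at least 18.2-fold below intestine, 16.1-fold below stomach and 4.56-fold below esophagus by the first probe, and at least 10.3-fold, 10.4-fold and 2.64-fold below them by the second. Under normexp the first probe gave 5.72-fold, 4.47-fold and 1.45-fold, the last under 2-fold. Hand2 was the 1 member for which esophagus and stomach could be set against lung at all.

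Mab21l1 had small differences between organs. Its signal was 182 in intestine, 33.7 in stomach, 22.5 in esophagus and 1.69 in lung, and its levels were -2.44 in intestine, -3.25 in stomach and -4.07 in esophagus. The organs came in the same order as for Mab21l2, with a far smaller step between intestine and stomach. Intestine was 1.75-fold above stomach and stomach 1.77-fold above esophagus, and intestine was 3.09-fold above esophagus. The first of these, 0.81 on the log2 scale, is about the size of the SD between probes of a gene, and under normexp it was -0.10. Under normexp the intestine excess over esophagus was 1.23-fold, no longer past 2-fold. No fold against lung is given, since the intestine level lies just under the lowest level the lung array resolves.

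**Figure D1:**
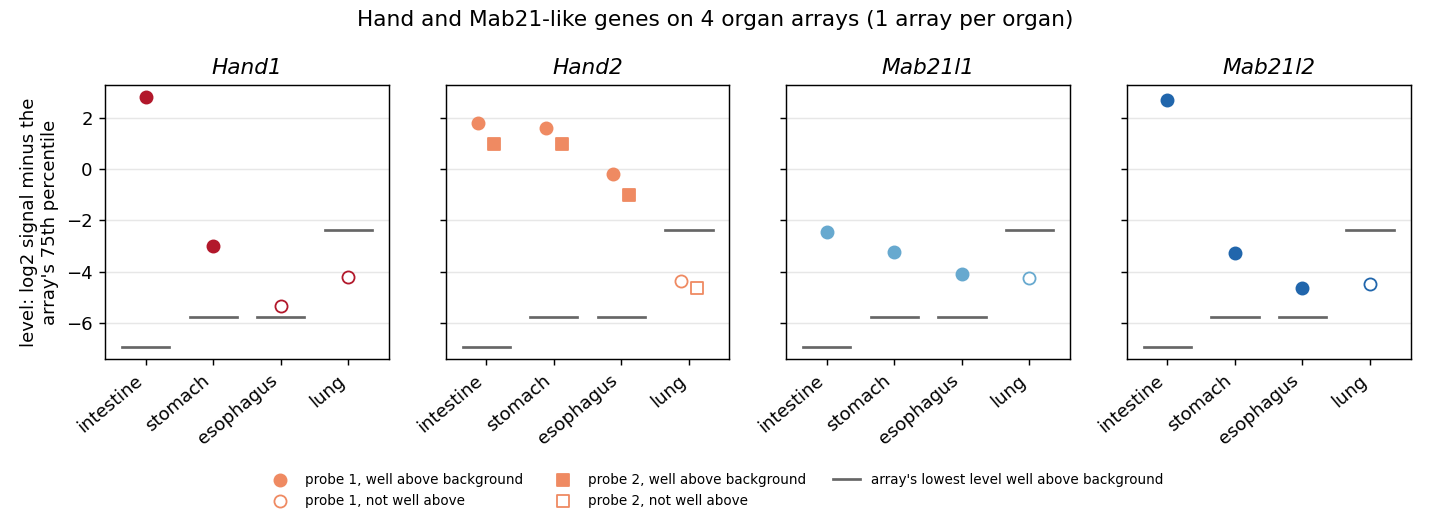
Level of each probe (y axis, log2 signal minus the array's 75th percentile) on the intestine, stomach, esophagus and lung arrays, 1 panel per gene; filled symbols are well above background, open symbols are not, and squares are the second Hand2 probe. Grey bars mark the lowest level well above background on each array, -2.39 in lung; Hand1 and Mab21l2 stand above 2 in intestine and below -3 in stomach, while both Hand2 probes are level between these organs.

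Set against all genes, intestine exceeded stomach by 2-fold or more in 2 of the 4 members and in 4.87% of 13807 genes; 0 members and 7.52% of genes were as much lower. Intestine exceeded esophagus in all 4 members and in 8.71% of 13895 genes, with 0 members and 11.9% of genes lower. Intestine exceeded lung in all 3 members compared and in 8.4% of 10416 genes, with 0 members and 12.2% of genes lower. Stomach and esophagus could be set against lung for Hand2 alone, which was higher in each, as were 9.87% and 9.42% of genes, while 14% and 16.2% were lower. No member was well above background in lung, so against lung a member could only come out higher or be left out. Nothing is read from the counts against lung. Intestine stood 2-fold above every other organ for 1.11% of 14506 genes, Hand1 and Mab21l2 among them, and above both stomach and esophagus for 3.28% of 14502 genes, again with these 2 of the 4 members. The intestine counts use the contrast that chose Hand1 and Mab21l2, and nothing is read from them. Stomach against esophagus is another contrast, though the stomach and esophagus values of Hand1 and Mab21l2 also entered their choice. There 3 of the 4 were at least 2-fold higher in stomach, with Mab21l1 at 1.77-fold as the exception, and 4.27% of 13732 genes were; 0 members and 5.63% of genes were as much lower. Hand1 was 4.99-fold higher in stomach as measured. Its esophagus spot was not called well above background, so Hand1 could only come out higher in stomach or be left out. Nothing is read from this count either. Under normexp 1 of the 4, Hand2, passed 2-fold there, with Hand1 at 1.63-fold, Mab21l2 at 1.48-fold and Mab21l1 at 1.32-fold. The order intestine over stomach over esophagus, at any size, held for the brightest probes of all 4 members and for 29.4% of 13498 genes, but not for the second Hand2 probe; it takes in the contrast that chose the members, and nothing is read from it. The genes of all kinds split into 673 higher and 1038 lower in intestine than in stomach, which became 1263 and 586 when the arrays were centred on their medians and 794 and 652 under quantile normalization. Against esophagus, 1210 genes were higher and 1657 lower in intestine; median centring gave 3762 and 955, and quantile normalization 1680 and 1275. In stomach 586 were higher and 773 lower than in esophagus, or 966 and 566 after median centring. Against lung the split turned with the scaling: 875 higher and 1271 lower in intestine became 1241 and 846 with the percentile taken over probes detected on all arrays, 1037 and 1471 in stomach became 1427 and 999, and 990 and 1706 in esophagus became 1518 and 880. Median centring moved the median of all genes to 0.26, 0.62 and 0.36 in the 3 contrasts; it had been -0.03, 0.13 and 0.16. The brightest probes of all 4 members kept the order intestine, stomach, esophagus under each of the 3 other scalings, and under normexp Mab21l1 lost it. Mab21l1 passed 2-fold against stomach under median centring (1.11 on the log2 scale) and quantile normalization (1.03), and in stomach against esophagus under median centring (1.02).

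**Figure D2:**
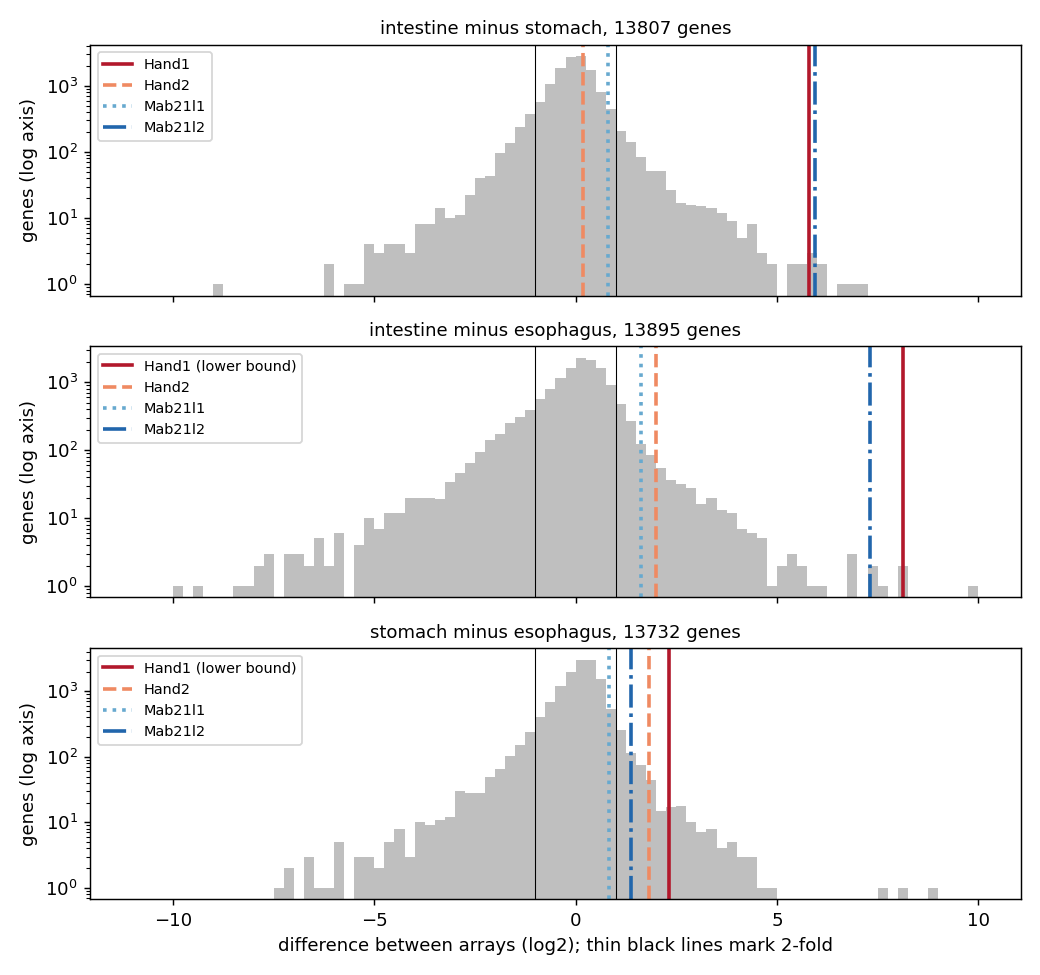
Distribution of log2 differences between arrays over all genes compared (grey, log count axis) for intestine minus stomach, intestine minus esophagus and stomach minus esophagus, with the members as coloured lines and the 2-fold limits as thin black lines. Hand1 and Mab21l2 lie at 5.81 and 5.94 in the first panel, far into the right tail, while Hand2 at 0.18 lies inside the bulk of genes. In the last panel all 4 lie right of the centre. In the panels against esophagus, the lower bound named in the legend for Hand1 is its measured value. That esophagus spot was not called well above background.

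RefSeq's promoter table (GRCm38.p6) lists 2 of the 4 members, Hand2 and Mab21l2. The 250 bases before their start sites are shown because these genes differ in their intestine-to-stomach step, which is large for Mab21l2 and near 0 for Hand2. Capitals mark E-boxes, written CANNTG, the six-letter site that basic helix-loop-helix dimers bind; the motif reads the same on both strands. Hand2 lies on the plus strand of chromosome 8 (chr8:57320733-57320982) and Mab21l2 on the minus strand of chromosome 3 (chr3:86548284-86548533, printed 5′ to 3′ along that strand).
Hand2: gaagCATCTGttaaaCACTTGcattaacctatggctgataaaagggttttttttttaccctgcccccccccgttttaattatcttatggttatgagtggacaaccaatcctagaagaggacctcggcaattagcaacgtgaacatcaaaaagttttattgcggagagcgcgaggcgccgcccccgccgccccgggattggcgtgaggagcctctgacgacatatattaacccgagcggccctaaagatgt
Mab21l2: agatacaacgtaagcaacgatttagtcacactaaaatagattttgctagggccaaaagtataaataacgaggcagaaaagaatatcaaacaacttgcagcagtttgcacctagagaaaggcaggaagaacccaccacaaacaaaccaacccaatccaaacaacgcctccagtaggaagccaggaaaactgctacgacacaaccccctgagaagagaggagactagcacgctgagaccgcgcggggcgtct
The Hand2 window held 2 E-boxes, which began 246 and 235 bases before the start, and 31.8% of 32851 windows of the same length held as many. The Mab21l2 window held 0, while 66.2% of windows held at least 1. A match is a run of letters and was not tested as a binding site.

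RNA for the E proteins, dimer partners of the Hand proteins, and for the Id proteins was present in every organ. Intestine differed from stomach and esophagus far less in these genes than in Hand1. Hand2, at 0.18 (log2) between intestine and stomach by its brighter probe, was more even there than most of them. All 7 E and Id protein genes were well above background on all 4 arrays, and between intestine and esophagus none of the 7 was 2-fold apart. Tcf3, Tcf4 and Tcf12, which encode the E proteins, differed between intestine and stomach by -0.21, -0.65 and -0.51 (log2). Of the Id genes, whose products block E proteins, Id1, Id2 and Id3 differed by -0.77, 0.26 and 0.13, and Id4 was 2-fold apart, lower in intestine than in stomach by a log2 difference of -1.78. The median over the list was -0.51 for intestine minus stomach and -0.26 for intestine minus esophagus, against -0.03 and 0.13 over all genes; the second became 0.24 under median centring.

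Other Twist-family factors went different ways. Between intestine and esophagus, 2 of 7 detected were higher in intestine by 2-fold or more, 2 were as much lower and 3 were within 2-fold, and the median difference was -0.09. Higher were Tcf21, a factor of visceral mesoderm, which stood at 3.06 in intestine, 2.28 in stomach and 1.11 in esophagus, and Tcf15, a factor of somites, at 1.46, 0.91 and -0.19. Twist1, a factor of head and limb mesenchyme, ran the other way, at -1.46 in intestine, -0.98 in stomach and 1.23 in esophagus, as did Msc, a factor of pharyngeal muscle precursors, at -4.24, -2.55 and -1.31. Against stomach 1 of the 7 was at least 2-fold higher in intestine and 2 were lower.

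The other genes with a Mab21-type domain were level. Of 6 detected, none was 2-fold apart between intestine and stomach or between intestine and esophagus. The widest difference was that of Mief2, a mitochondrial fission factor, at -0.89 and -0.92 (log2). Mab21l3 stood at -3.75 in intestine, -3.82 in stomach and -3.87 in esophagus. Cgas, which encodes the DNA sensor cGAS, differed by -0.10 in both contrasts, and Mb21d2, Itpripl2 and Mief1 lay between -0.31 and 0.29.

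**Figure D3:**
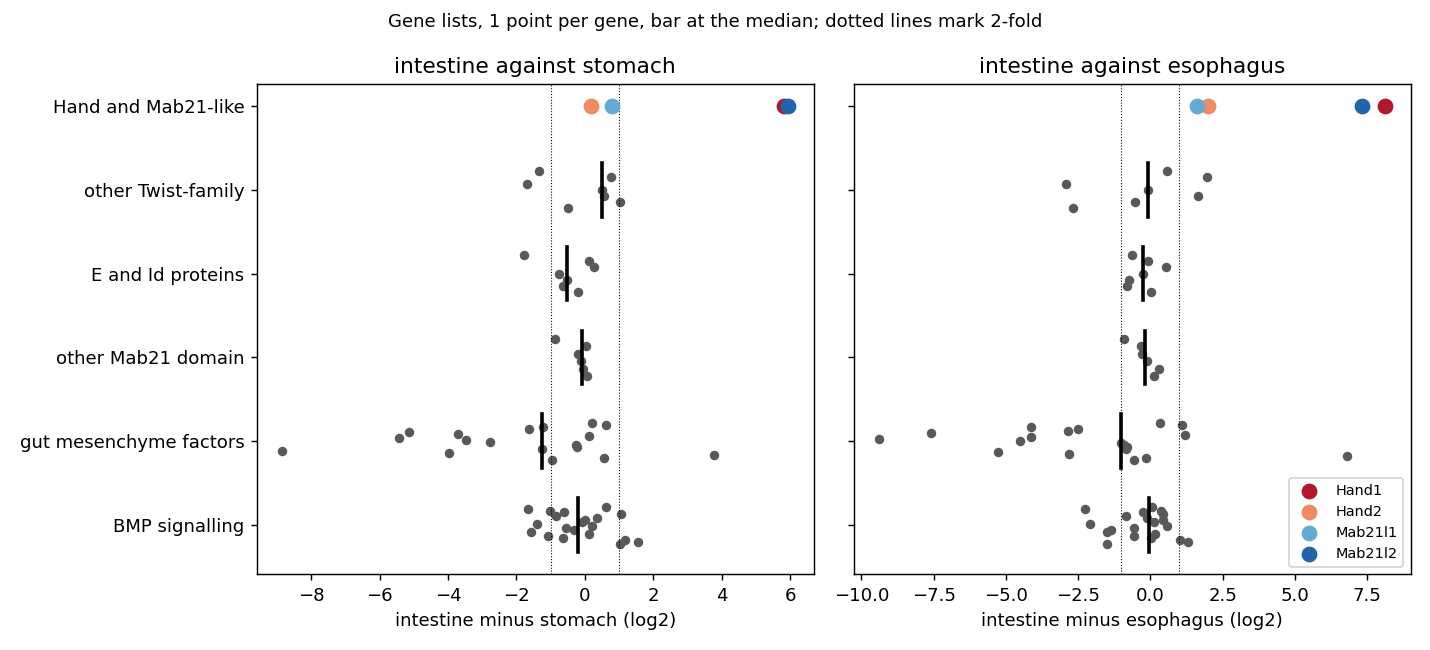
Log2 difference of intestine minus stomach (left) and intestine minus esophagus (right) for the members (coloured, brightest probe) and for each gene of 5 lists (grey points, bar at the list's median, dotted lines at 2-fold). The other Mab21 domain genes all lie within 2-fold; gut mesenchyme factors spread from -8.84 to 3.79 on the left and from -9.38 to 6.82 on the right.

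Of the listed transcription factors of splanchnic mesoderm and gut mesenchyme, more were lower than higher in intestine, opposite to Hand1. The list includes factors of stomach, heart, lung and limb, such as Barx1, Tbx5 and Prrx1, so its direction depends on the genes listed. Against stomach 1 of 18 was at least 2-fold higher and 10 were at least 2-fold lower in intestine, with a median of -1.25. Over all genes 4.87% were higher and 7.52% lower, with a median of -0.03. Against esophagus 3 of 19 were higher and 10 lower, beside 8.71% and 11.9% of all genes. The list median of -1.01 became -0.50 under median centring, and the median over all genes was 0.13 before it. The 1 gene higher in intestine than in stomach by 2-fold was Nkx2-3, a homeobox factor of midgut and hindgut mesenchyme. It stood at 2.99 in intestine, -0.80 in stomach and -3.83 in esophagus. Its excess over stomach was 13.8-fold, short of the 56.0-fold of Hand1. Over both contrasts, by the larger difference of each gene, the largest shortfalls were those of Tbx5, a T-box factor of heart and lung mesoderm, with a bound of -5.43 (log2) against stomach and -9.38 against esophagus, of Barx1, at -4.35 in intestine and 4.49 in stomach, and of Prrx1, a homeobox factor of limb and craniofacial mesenchyme, at -3.59 in intestine, 0.12 in stomach and 3.99 in esophagus.

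BMP signalling, which induces Hand genes in several mouse tissues, showed no common direction. Of 20 list members, 4 were higher by 2-fold or more and 5 lower in intestine than in stomach, and 2 higher and 5 lower than in esophagus. The medians were -0.20 and -0.05, and 0.10 and 0.45 under median centring. Bmp4, the main ligand of gut mesenchyme, stood at 1.97 in intestine, 0.43 in stomach, 0.66 in esophagus and 1.12 in lung, which is 2.91-fold above stomach and 2.48-fold above esophagus. Msx2, a transcriptional target of BMP in several tissues, was lower in intestine, at -5.40, than in stomach, at -3.73, and esophagus, at -3.13. The receptor gene Bmpr1b stood at -3.92, -2.34 and -2.41, and the receptor-activated Smad9 at -5.19, -3.80 and -3.11, in the same order.

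Hand2 also works in neurons of the gut wall and in sympathetic neurons, and genes of these cells were read beside it. Of 11 enteric neural crest genes, none exceeded its stomach level by 2-fold in intestine and 3 were 2-fold lower there. Over all genes 4.87% were higher and 7.52% lower. In stomach 6 were higher and 1 lower than in esophagus, against 4.27% and 5.63% of all genes, and Hand2 was 3.52-fold higher. In intestine 2 were higher and 2 lower than in esophagus, against 8.71% and 11.9% of all genes. The median there was -0.27, while Hand2 was 3.98-fold higher. Elavl4, an RNA-binding protein of neurons, stood at 2.01 in intestine, 2.20 in stomach and 0.65 in esophagus. Gfra1, the GDNF co-receptor, was at -0.44, 1.35 and 0.94, and Ednrb, the endothelin receptor of crest cells, at 2.10, 2.42 and 3.45. The summed level of the 11 genes, which is weighted by the brightest probes, was 3.83 in intestine, 4.38 in stomach, 4.22 in esophagus and 2.52 in lung. Their medians were -1.04, -0.43, -0.37 and -2.58 in the same order. Of 7 catecholamine genes, 2 were at least 2-fold higher and 1 lower in intestine than in esophagus, with a median of -0.05. In stomach 1 was higher and 1 lower than in esophagus, with a median of 0.01. Dbh, which encodes the enzyme that makes noradrenaline, came closest to the Hand2 course, at -0.55 in intestine, -1.13 in stomach and -3.06 in esophagus. Gata3 ran the other way, at -3.55, -2.57 and -2.31 in the same order. Th, the enzyme that starts that pathway, was nearly level at -2.67, -2.75 and -2.51. The part of such neurons in the Hand2 values was not tested.

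Heart muscle uses both Hand genes, and heart genes were present on these arrays. All 10 were highest in esophagus, and their summed level was 0.47 in intestine, 1.51 in stomach, 6.88 in esophagus and 3.19 in lung. Myh6, the atrial myosin heavy chain, stood at -5.77 in intestine, -4.53 in stomach and 2.04 in esophagus. Hand1 was not well above background on that esophagus array, and Hand2 was lower there than in intestine and stomach. Liver genes were highest in intestine in 7 of 7 cases, with a summed level of 6.05 in intestine, 1.85 in stomach, 3.38 in esophagus and 4.79 in lung. Their medians were 1.32, -3.08, -1.82 and -0.49 in the same order. Against lung, 5 of the 6 compared were at least 2-fold higher in intestine and 0 lower, beside 8.4% and 12.2% of all genes. Alb, the albumin gene, stood at 2.98 in intestine and 1.98 in lung. Trf and Ttr, like Hand1 and Mab21l2, were not well above background in lung. Intestine had at least 13.1-fold the lung level of Trf. Genes of mesothelium, a cell layer that covers these organs, had summed levels of 5.71 in intestine, 4.73 in stomach, 4.17 in esophagus and 4.51 in lung. Most of the intestine sum was Aldh1a2, at 5.48. The medians were 0.05, -1.05, -0.59 and -0.10 in the same order of organs, with stomach lowest. Against stomach 2 of these 8 were 2-fold higher in intestine and 2 were lower, and against esophagus 3 were higher and 1 lower. Aldh1a2, which encodes an enzyme of retinoic acid synthesis, and Upk3b, a uroplakin gene, were 2.50-fold and 2.71-fold above stomach in intestine. Msln, which encodes mesothelin, was lower by a log2 difference of -2.88. Tbx18, a T-box factor, was not well above background in intestine and was lower there with a bound of -2.04 (log2). Wt1, a defining marker, stood at 0.53, 1.05, 0.46 and 1.02 in the same order of organs. Intestinal epithelium genes exceeded their stomach level by 2-fold in intestine in 8 of 9 cases and their esophagus level in 8 of 8. Their part in the member values was not tested.

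The genes whose course over the 4 organs lay nearest that of each member were sought among 11084 genes, by Euclidean distance between profiles centred on their own mean. Values under -2.39, the lung limit, were first set to it on all arrays. For Hand1 the nearest was Mab21l2, at a distance of 0.09, and for Mab21l2 it was Hand1. Next for Hand1 came Lgals2 (0.35), which encodes a galectin, Cdx2 (0.78), Isx (1.02), an intestine-specific homeobox gene, and Tdh (1.07), which encodes threonine dehydrogenase. The same 4 followed for Mab21l2, at 0.26, 0.69, 0.93 and 1.06. At that common level Hand1 and Mab21l2 are reduced to a value in intestine and a floor elsewhere. Then 157 genes had a Pearson r of 1 with them, so r cannot rank them. Among genes at the floor outside intestine, the Euclidean distance ranks by intestine level alone, which depends on the brightness of each probe. Hand1 and Mab21l2 were also chosen for their intestine excess, so nothing is read from their nearness. Without the lung array, which lowers the common level to -5.75, 4 of the 5 nearest were shared for each, Cdx2 was nearest to Hand1 at 0.62 and Isx nearest to Mab21l2 at 0.20.

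For Hand2 the nearest were Fst (0.60), which encodes the activin and BMP antagonist follistatin, Dusp26 (0.61), a protein phosphatase gene, Scrn1 (0.67), Smoc1 (0.84), which encodes a secreted matrix protein, and Tubb3 (1.04), a tubulin of neurons. Fst stood at 1.82 in intestine, 0.90 in stomach and -0.48 in esophagus, and like Hand2 was not well above background in lung. Without the lung array 0 of these 5 remained, and Etv4 and Bnc1, at 0.06 and 0.07, were nearest. Mab21l1 did not exceed the lung array's lowest level on any array and had no nearest genes; without lung these were led by Tmem199 and Asgr2. Likeness over so few organs is a description, and no function or control is read from it.

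**Figure D4:**
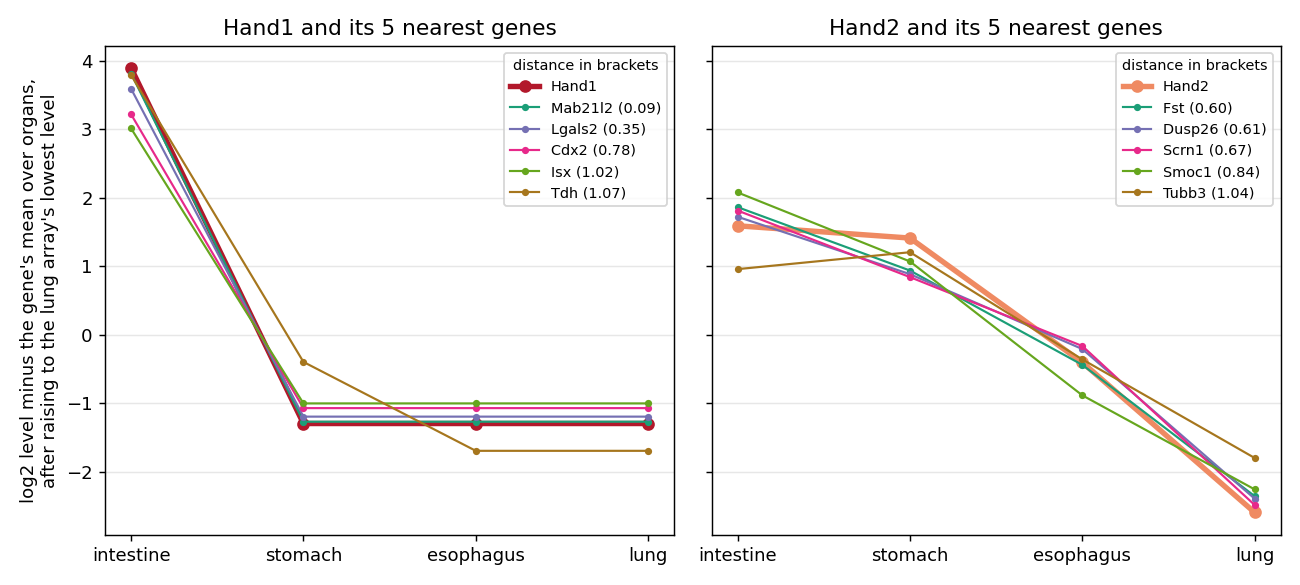
Course of Hand1 (left) and Hand2 (right) over the 4 organs with the 5 nearest genes of each, as log2 level minus the gene's own mean after raising all arrays to -2.39; legends give the Euclidean distance. The Hand1 group has a single peak in intestine, and the Hand2 group is high in intestine and stomach, lower in esophagus and lowest in lung.

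Genes next to the members on the chromosome, read after the member values were known, did not share one course. Mab21l2 lies within Lrba, which encodes a large anchor protein of vesicles. The brightest of the 4 Lrba probes stood at 0.49 in intestine, -1.90 in stomach and -1.42 in lung, so intestine was 5.26-fold above stomach, where the Mab21l2 excess was 61.4-fold. Against esophagus the Lrba excess was 5.61-fold. The second Lrba probe opposed it, at -4.59 in intestine, -3.29 in stomach and -2.09 in esophagus. Dclk2, a kinase gene beyond Lrba, was 1.77-fold higher in intestine than in stomach. Hand2 lies between Fbxo8 and Scrg1 among protein-coding genes. Scrg1 ran against Hand2: it stood at -6.20 in intestine, -2.09 in stomach, -1.20 in esophagus and -1.31 in lung. Intestine had 2.21-fold the stomach level of Fbxo8, which stood at -0.70 in lung. Sap30l, the neighbour of Hand1 and a member of a histone deacetylase complex, was nearly level, at 4.71 in intestine, 4.76 in stomach, 4.45 in esophagus and 3.85 in lung.

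**Figure D5:**
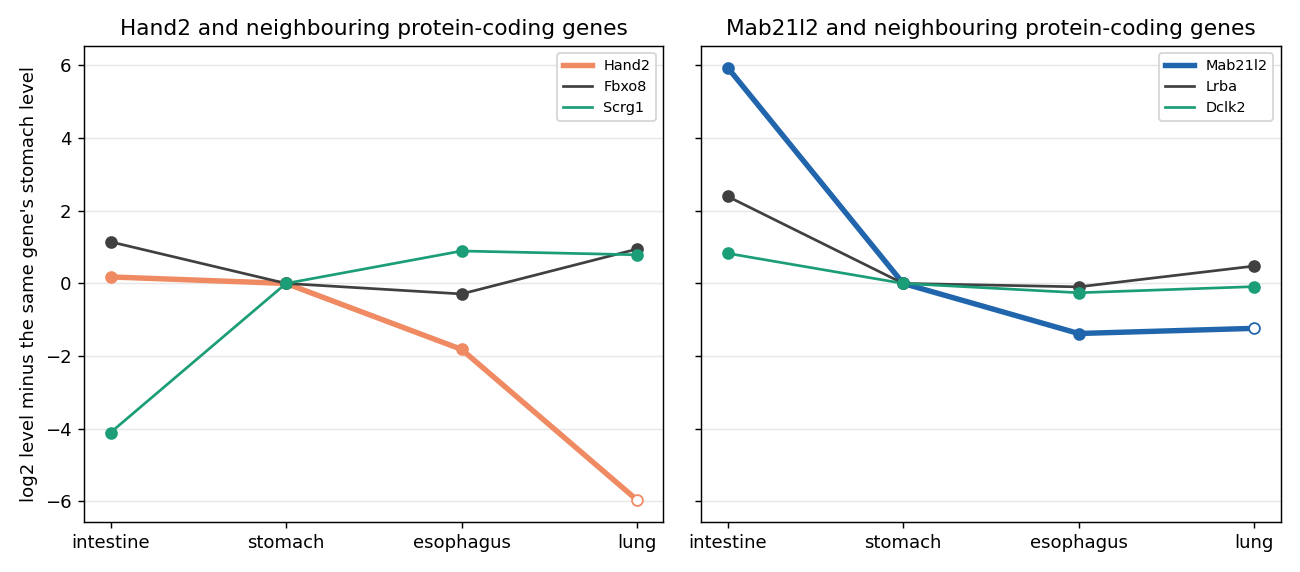
Course of Hand2 with its flanking protein-coding genes Fbxo8 and Scrg1 (left) and of Mab21l2 with Lrba, which contains it, and Dclk2 (right), as log2 level minus the same gene's stomach level on the intestine, stomach, esophagus and lung arrays; open symbols are not well above background. Scrg1 is lowest in intestine, where Hand2 is high, and the brightest Lrba probe is highest in intestine with Mab21l2.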

How the data were processed

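The samples were total RNA of 4 organ primordia, 1 Cy3 array each. Per the file headers, the array design was 014868 (build mm8), the protocol GE1_105_Dec08 and the software Agilent Feature Extraction 10.5.1.1. The deposited spot intensity is background-subtracted and detrended on each array, with no scaling across arrays. A deposited table of the whole series gives log2 values, which matched the levels used here (r of 0.99996 to 0.99998, column medians of -3.47 in intestine, -3.17 in stomach, -2.97 in esophagus and -3.56 in lung); its scale and centring are known from that match only.

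Outlier spots, as the scanner marked them, were removed, replicate spots of a probe were averaged as log2 values, and each array was set relative to its 75th percentile over non-control probes. Of 41174 probes, 69 had no unmarked spot on some array, and 24375 (59.2%) were named by accession through RefSeq's gene table (GRCm38.p6). A gene took its brightest probe in comparisons over all genes; every probe of a member is given. No spot was saturated. A size of 2-fold is a threshold, not a test.

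The members and gene lists were chosen with earlier results of these data known. Named genes are the members, their 5 nearest, and all E protein, Id protein and Mab21 domain genes. Up to 4 genes per list, of largest difference among those 2-fold apart, are also named. Others, among them Th, Wt1, Alb and the neighbouring genes, were added after their values were seen. Some genes that the rule would name are not reported here. Scaling, background correction (normexp with an offset of 50, on median spot signals since mean signals were not in the files used), the floor, the probe rule and the lung array were varied. Calculations used Python 3.11.15, numpy 2.4.6, pandas 2.3.3, R 4.3.3 and limma 3.58.1, and were tested on simulated data.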

Additional observations from a re-analysis of the deposited data

How the results depend on the processing

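Of 236 recomputed values, 212 stayed within the SD between probes of a gene (for counts, within 1.5 times), 24 moved further and 0 of the called differences reversed. None moved under the other percentile, median centring, quantile normalization, the deposited series table or the mean over probes. The other percentile and median centring shift a member's difference by a constant per organ pair, smaller than that SD, so they could not move it. The series table holds the same measurements, and the mean over probes can change only genes with several probes. Little is therefore read from the values that stayed. The normexp correction gave 15 of the 24. Under it Hand1 was higher in intestine than in stomach by 4.60 (log2), than in esophagus by 5.30 and than in the next organ by 3.19, and Mab21l2 by 4.80, 5.37 and 3.44. Stomach minus esophagus was 0.71 for Hand1 and 0.56 for Mab21l2, both under 2-fold. Mab21l1 lost its intestine excess, at -0.10 against stomach and 0.30 against esophagus, and the cause was not tested. Over all genes the correction left 269 higher and 1756 lower in intestine than in stomach, 656 and 1722 than in esophagus, and 167 higher and 270 lower in stomach than in esophagus. Values as measured, with no floor, moved only differences against lung. Of the 5 nearest genes, 0 were shared under Pearson r for Hand1, Hand2 and Mab21l2, and 0 for Hand2 without the lung array.

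No paired analysis was possible because each organ has 1 array. The dim lung array limits what can be said of levels under -2.39, which includes Hand1 and Mab21l2 in stomach and esophagus and Mab21l1 everywhere. With 1 array per organ, precision cannot be estimated beyond the spots.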

Other observations

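The Hand1 spot on the esophagus array gave a signal of 9.41, above the lowest signal called well above background on that array, 7.03, and was itself not so called. Its error estimate was 22.8% of the signal.

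Marker lists of further tissues were read on the same arrays. Smooth muscle genes were level between intestine and stomach, with 0 of 7 at least 2-fold apart, and 4 of 7 were at least 2-fold lower in intestine than in esophagus, among them Myh11, the smooth muscle myosin, at -1.75 in intestine and 1.34 in esophagus. Of 7 genes of the pancreas bud, 2 were at least 2-fold higher and 2 lower in intestine than in stomach, with Cpa1, a pancreatic enzyme, at 1.24 in intestine and -2.85 in stomach. Eye and neural genes, read because Mab21l1 and Mab21l2 are known from the eye, were close to absent: 3 of 6 were well above background on any array, and Six3 was on none. Of 6 genes of limb and body wall, Hoxd13, of the hindmost body, had an intestine level at least 8.12-fold that of stomach, and Pax1 was detected in esophagus alone, at -1.71.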
